A study of Mus musculus with 17 samples.

Results

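The endoplasmic reticulum (ER) chaperones described here are 10 genes, Hspa5, Hsp90b1, Manf, Sdf2l1, Creld2, Dnajb11, Hyou1, Pdia4, Pdia6 and Xbp1, out of 23284 genes in the merged count table of a single-cell survey of the mouse hypothalamus. They were taken by name, with earlier results of these data known, and all 10 had a row in the table. The cells came from 3 mice deprived of food for 24 h and from 5 mice fed normally, all B6D2F1 hybrids of a C57BL6 mother and a DBA2 father, of an age not given in the sources used here. Drop-seq, which captures polyA RNA of single cells in droplets and tags each molecule so that copies are counted once as a UMI (unique molecular identifier), gave 17 libraries in 5 batches. Batch 1 held food-deprived replicate 1 beside normal replicate 3, and batch 2 held food-deprived replicate 2 beside normal replicate 4. Food-deprived replicate 3 was alone in batch 4, normal replicates 1 and 2 shared batch 0, and normal replicate 5 was alone in batch 3.

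Proteins that are secreted or placed in membranes fold in the ER with the help of chaperones, and when unfolded protein builds up there, the unfolded protein response raises the transcription of the chaperone genes. Hspa5 encodes BiP, the Hsp70 of the ER, and Hsp90b1 encodes GRP94, its Hsp90. Dnajb11 and Sdf2l1 assist BiP, Hyou1 (GRP170) exchanges its nucleotide, and Pdia4 and Pdia6 form and rearrange disulfide bonds. Manf and Creld2 encode ER-resident proteins that ER stress induces and that can be secreted, and Xbp1 encodes a transcription factor of the response whose mRNA is spliced by the sensor Ire1 (Ern1). In the hypothalamus the cells with a large secretory output include the neurons that make peptide hormones.

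The ER stress response element, through which the response acts on many of these genes, reads CCAAT, then any 9 bases, then CCACG. Of the 8 members present in the RefSeq promoter table (build GRCm38.p6), 4 held it on either strand within the 250 bases before the start site, against 37 of all 32851 promoters in that table, a share of 0.113%. The 4 promoters are shown because their shared letters are the known feature of the family. They are written 5′ to 3′ along the gene's strand, with the CCAAT and CCACG parts of each match in capitals, or CGTGG and ATTGG where the match lies on the other strand.
Hspa5: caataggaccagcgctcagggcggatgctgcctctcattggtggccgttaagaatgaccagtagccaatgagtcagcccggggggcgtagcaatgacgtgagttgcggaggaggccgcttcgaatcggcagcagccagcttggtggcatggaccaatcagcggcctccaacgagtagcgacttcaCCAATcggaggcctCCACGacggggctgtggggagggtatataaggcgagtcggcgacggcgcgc
Hsp90b1: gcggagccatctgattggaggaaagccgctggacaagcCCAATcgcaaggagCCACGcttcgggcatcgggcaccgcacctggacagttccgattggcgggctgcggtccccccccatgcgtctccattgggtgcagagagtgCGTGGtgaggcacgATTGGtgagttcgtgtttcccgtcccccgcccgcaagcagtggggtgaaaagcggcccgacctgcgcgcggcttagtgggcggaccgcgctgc
Creld2: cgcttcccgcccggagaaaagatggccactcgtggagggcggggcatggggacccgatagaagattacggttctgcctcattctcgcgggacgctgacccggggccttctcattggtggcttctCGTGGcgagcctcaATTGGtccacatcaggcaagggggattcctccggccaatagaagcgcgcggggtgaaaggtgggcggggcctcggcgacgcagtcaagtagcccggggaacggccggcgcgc
Pdia6: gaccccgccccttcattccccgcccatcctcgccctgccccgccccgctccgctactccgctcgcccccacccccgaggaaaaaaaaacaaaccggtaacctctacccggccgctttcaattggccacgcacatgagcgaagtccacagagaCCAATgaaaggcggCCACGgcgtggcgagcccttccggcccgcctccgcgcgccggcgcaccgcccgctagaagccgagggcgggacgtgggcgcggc
The stretches lie at chr2:34771840-34772089 (plus strand) for Hspa5, chr10:86705445-86705694 (minus strand) for Hsp90b1, chr15:88819396-88819645 (plus strand) for Creld2 and chr12:17266339-17266588 (plus strand) for Pdia6. Hsp90b1 held 2 matches, one on each strand, and the others held 1 each. In Hspa5 the match ran from 65 to 47 bases before the start site. Sdf2l1, Dnajb11, Pdia4 and Xbp1 had no match to these letters in that window. Manf and Hyou1 were not analysed here in this respect. The related element with ATTGG, 1 base and CCACG was in 0 of the 8 member promoters and in 10 of all 32851 (0.0304%). Among the other gene lists compared later, the first element was found for 3 of 17 other ER folding genes (Calr, Canx and Dnajc3) and for 2 of 11 genes of ER-associated degradation (Derl3 and Syvn1), and for 0 of 16 genes of the cytosolic heat shock list. These are matches of letters, and no binding was measured.

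The analysis used 14276 cells and 46904254 UMIs. A further 161 annotated cells were left out because their barcode occurred in several libraries of the same batch and feeding state, and 120 of 18300 barcodes occurred in more than 1 library. Mice differed widely in depth, with 3698233 to 12570644 UMIs in the food-deprived mice and 290861 to 8958225 UMIs in the normal mice, so that normal replicates 1 and 2 (129 and 158 cells) are the least precise. The marker lists of 11 classes each peaked in their own class. Those of the Hista neurons and of the proliferating precursors (POPC) could not be checked so, because no normal mouse had at least 20 cells of either class. Some libraries of batches 1 and 2 carried almost no Gapdh (under 50 CPM, the UMIs of a gene per 1000000 UMIs), namely 3 of 4 of food-deprived replicate 1, 2 of 3 of food-deprived replicate 2, 3 of 3 of normal replicate 3 and 1 of 2 of normal replicate 4. Within the mice that had both kinds of library, the log2 ratio of a member's level in the libraries with more Gapdh to that in the libraries with less ran between -0.25 and 0.41 over the members. The authors' deposited cluster names are used throughout (MO, IMO, OPC, Astro, Tany, Ependy, Epith, Micro, Macro, SCO, and numbered GABA and Glu neurons), and levels are given as CPM of a mouse's summed UMIs in a cluster. Nothing states that clusters were built without these genes, so levels between clusters are described and not tested.

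In normally fed mice the chaperones had no common peak, and the order of the clusters differed from member to member. The comparison covered 16 named clusters with at least 10 cells in at least 2 normal mice, and clusters are called apart below where their mean ± SD ranges do not meet. Hspa5 was highest in Micro, the microglia, and this cluster was apart from all 15 others. Its values there were 3129, 4088 and 3566 CPM in normal replicates 3, 4 and 5, a mean of 3595 ± 480.5 CPM (SD, n = 3). Each of these mice exceeded all values of Macro, the next cluster, which averaged 2309 ± 346 CPM (SD, n = 3). MO, the oligodendrocyte cluster, was lowest with 549 ± 79.9 CPM (SD, n = 5), 6.54-fold under Micro. Between these ends the ranges of neighbouring clusters overlapped. Ependy held 667, 1184, 2490.2, 1342 and 966 CPM of Hspa5 in normal replicates 1 to 5, and replicate 3 stood far above the others.

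Hsp90b1, the Hsp90 of the ER, was spread more evenly. It averaged 2005 ± 321 CPM (SD, n = 4) in GABA8 at the top and 952 ± 199 CPM (SD, n = 5) in MO at the bottom, a 2.11-fold span in which all neighbours overlapped. The BiP cofactors did not follow BiP everywhere. Sdf2l1 was highest in Macro with 166 ± 57.9 CPM (SD, n = 3) and next in Micro with 121 ± 12.2 CPM (SD, n = 3), and was lowest in Epith2 with 11.6 ± 10.5 CPM (SD, n = 3). Dnajb11 was highest in IMO with 240 ± 68.6 CPM (SD, n = 3), apart from all 15 others, and lowest in GABA8 with 53 ± 36.4 CPM (SD, n = 4). GABA8 thus had the highest mean of Hsp90b1 and the lowest of Dnajb11, but it was the highest cluster for Hsp90b1 in 0 of 4 normal mice in which clusters could be ranked. Its low mean of Dnajb11 leaned on normal replicate 2, with 0 CPM in 13 cells. Normal replicates 3, 4 and 5 held 82.8, 64.3 and 64.8 CPM of Dnajb11 in GABA8. Hyou1 was low throughout, with 66.6 ± 21.4 CPM (SD, n = 2) in GABA15 at the top and 5.98 ± 10.4 CPM (SD, n = 3) in Macro at the bottom. Macro held 0, 17.9 and 0 CPM of Hyou1 in normal replicates 3, 4 and 5, from 30, 18 and 11 cells, so its rank is near the floor.

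The ER-stress-inducible secreted proteins Manf and Creld2 had different peaks. Manf averaged 355 ± 74.7 CPM (SD, n = 4) in GABA8, 299 ± 105 CPM (SD, n = 2) in GABA15 and 278 ± 39.1 CPM (SD, n = 3) in Macro, which was apart from the next cluster, GABA13, at 206 ± 21.9 CPM (SD, n = 3). MO was lowest for Manf as well, with 90.2 ± 15.3 CPM (SD, n = 5). Creld2 was highest in the ciliated wall cells of Ependy, at 218 ± 32.7 CPM (SD, n = 5), apart from Tany, the tanycytes, at 141 ± 25.6 CPM (SD, n = 5). Ependy was the highest cluster for Creld2 in 4 of 4 normal mice in which it could be ranked.

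The disulfide isomerases also split. Pdia4 was highest in the cells that line the ventricle, with 381 ± 140 CPM (SD, n = 5) in Tany and 317 ± 96.6 CPM (SD, n = 5) in Ependy, and lowest in Glu4 with 37.7 ± 3.75 CPM (SD, n = 2). Pdia6 was highest in GABA15, where it stood at 724 CPM in normal replicate 2 and 264 CPM in normal replicate 5. The mean of 494 ± 326 CPM (SD, n = 2) was apart from no other cluster. Xbp1, the transcription factor, averaged 306 ± 49.3 CPM (SD, n = 4) in GABA8 and 236 ± 90.3 CPM (SD, n = 3) in Micro, and was lowest in Astro with 69.3 ± 18.7 CPM (SD, n = 3). MO was the lowest cluster for 3 of the 10 members, Hspa5, Hsp90b1 and Manf.

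**Figure D1:**
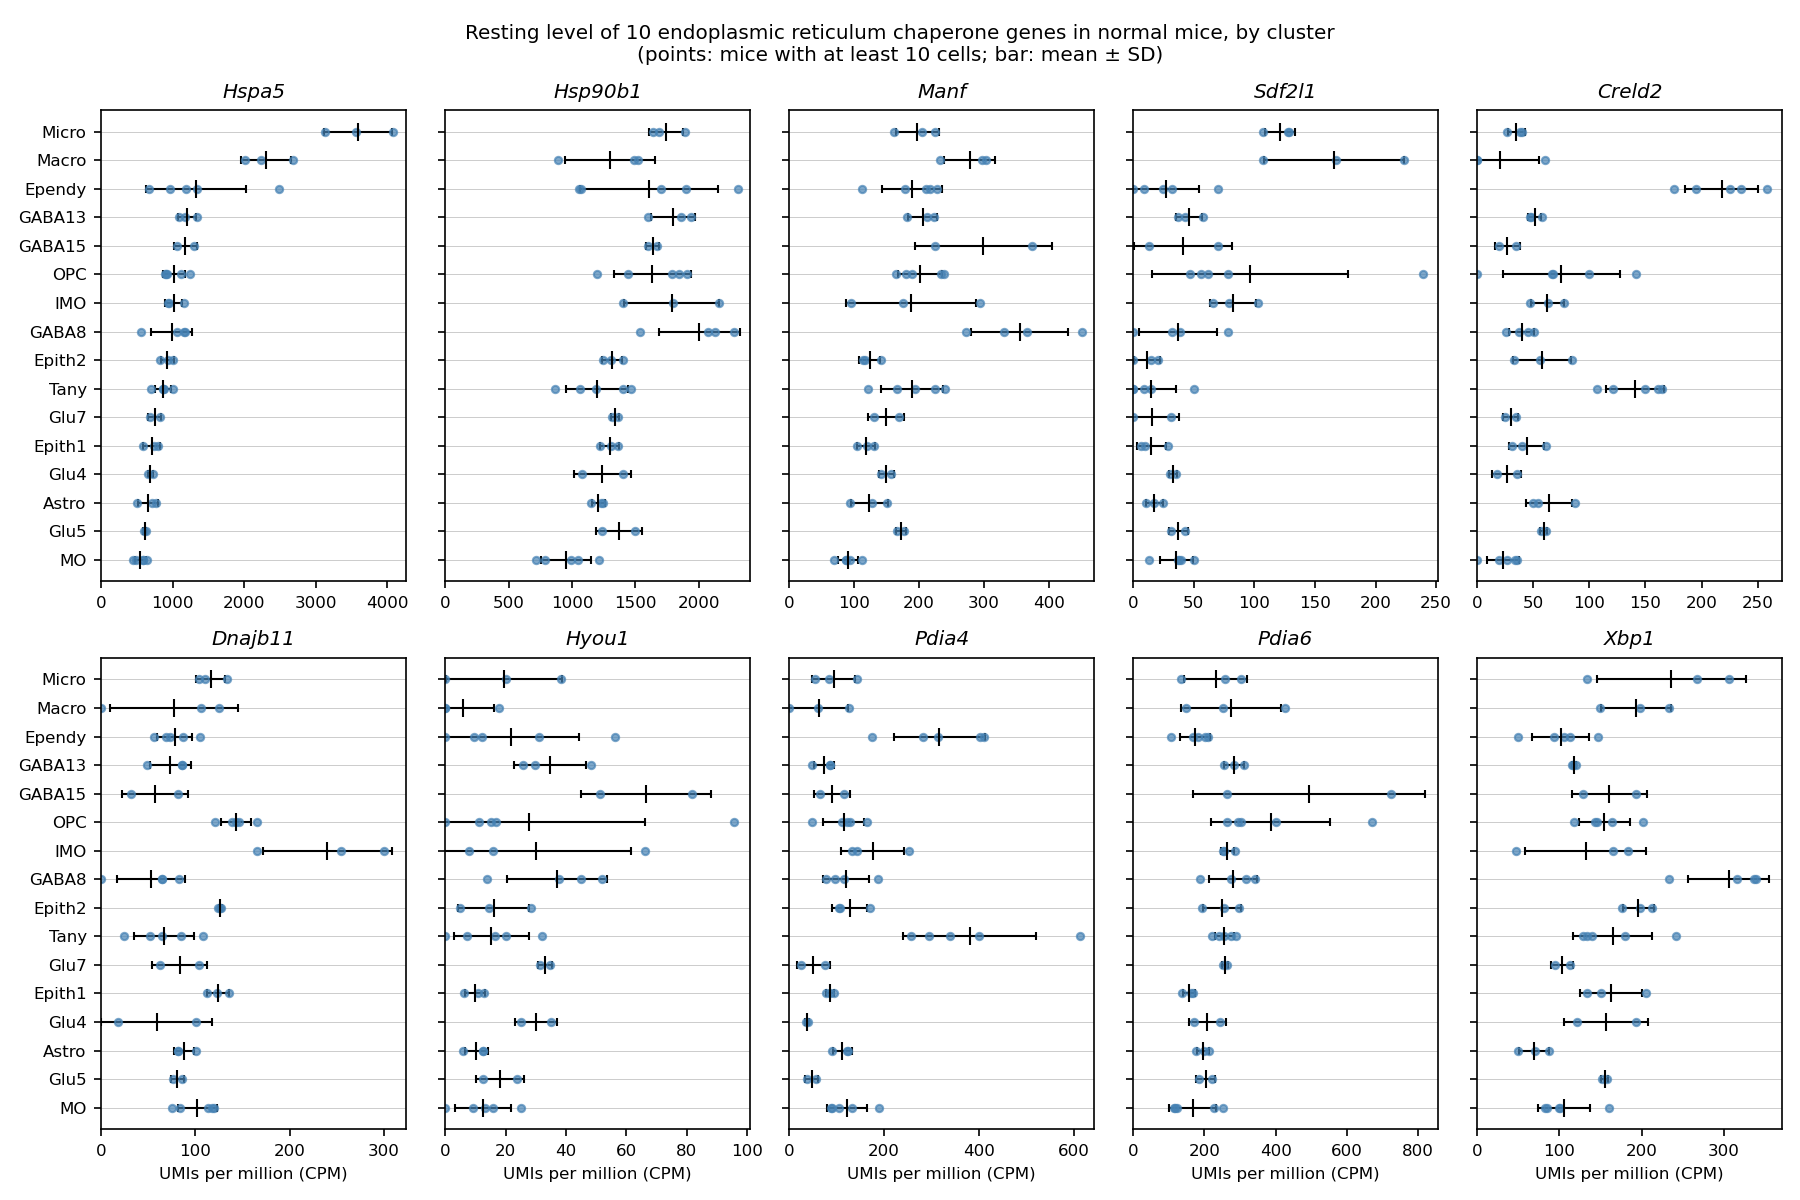
Resting level of each of the 10 chaperone genes per cluster in normal mice. The x axis is CPM (linear, from 0), each point is a mouse with at least 10 cells of the cluster, and the bar is the mean ± SD; Hspa5 in Micro, at 3129 to 4088 CPM, lies apart from every other cluster.

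Over the 16 clusters some members varied together and others did not. Pearson's r of log2(CPM + 10) was 0.77 between Creld2 and Pdia4, 0.73 between Hsp90b1 and Manf, 0.69 between Hspa5 and Sdf2l1 and 0.68 between Manf and Pdia6. Hspa5 and Hsp90b1 correlated at 0.51, and Hspa5 and Creld2 at -0.06. The clusters share mice, libraries and depth, so these coefficients are descriptions. By the same measure, the 10 genes most like Hspa5 among 4413 genes with a mean of at least 50 CPM were Wdr26 (0.92), Hpgds, Rcan1, Fyb, Ly86, Itgam, Pld4, P2ry12, Sfpi1 and Aif1 (0.85), of which P2ry12 and Aif1 are microglial markers. The other members ranked much lower, with Manf at 226, Hsp90b1 at 267 and Xbp1 at 354. With Micro and Macro left out, a choice made after seeing the data, Cnpy2 came first (0.88 over 14 clusters), Hsp90b1 ranked 6 (0.79) and Manf ranked 25 (0.69). The other members ranked lower, with Pdia6 at 133 (0.56), Creld2 at 406 (0.44) and Pdia4 at 460 (0.43). Xbp1 ranked 1372 (0.20) and Dnajb11 ranked 2739 (-0.03), while Sdf2l1 and Hyou1 were under the minimum level.

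Some clusters with fewer cells also held much chaperone RNA when all normal cells were summed. SCO, 32 cells of normal replicate 3 alone, held 3091 CPM of Hspa5 (exact Poisson 95% interval 2769 to 3439) and 3753 CPM of Hsp90b1 (3398 to 4135). Glu14, 27 cells of 3 normal mice, held 3475 CPM of Hsp90b1 (3244 to 3717), 392 CPM of Manf (317 to 479) and 103 CPM of Hyou1 (66.8 to 152). GABA17, 24 cells of 4 normal mice, held 559 CPM of Pdia6 (460 to 674). In Micro the same sum gave 3521 CPM of Hspa5 (3365 to 3682), and in MO it gave 536 CPM (513 to 560). These intervals cover counting error only and not the spread between mice.

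Secretory load was set against the chaperones as 3 summed levels per cluster, namely 37 peptide hormone and peptide-processing genes (peptide cargo), 37 other secreted proteins, and 32 genes of ER translocation and glycosylation. Over all 16 clusters the summed members did not follow the peptide cargo (Pearson's r of log2 sums 0.04, Spearman's rho 0.08), the translocation genes (r -0.18) or the other secreted proteins (r 0.24). Micro had the highest summed members, 6385 ± 680 CPM (SD, n = 3), beside a peptide cargo of 2401 ± 892 CPM. Hspa5 and Hsp90b1 together made up most of the summed members in each cluster, with 3595 and 1740 CPM in Micro and 989 and 2005 CPM in GABA8. The sums therefore say little about the other members. Among the 6 neuronal clusters alone r was 0.97 with the peptide cargo (rho 0.94) and 0.95 with the translocation genes (rho 0.89). These 6 points fell into 2 sets, with GABA8, GABA13 and GABA15 high in both sums and Glu4, Glu5 and Glu7 low in both. GABA8 held 4223 ± 590 CPM of summed members beside 29596 ± 6263 CPM of peptide cargo (SD, n = 4), and Glu4 held 2631 ± 318 CPM beside 9343 ± 466 CPM (SD, n = 2). The relation to the peptide cargo was looser over more neuronal clusters, with r of 0.66 over 26 clusters of pooled normal cells, 0.71 over 8 clusters within normal replicate 3 and 0.64 over 13 clusters within normal replicate 5. The relation to the translocation genes among neurons stayed at 0.83 or above in these 3 settings, and over all 38 clusters of pooled normal cells it was 0.43.

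**Figure D2:**
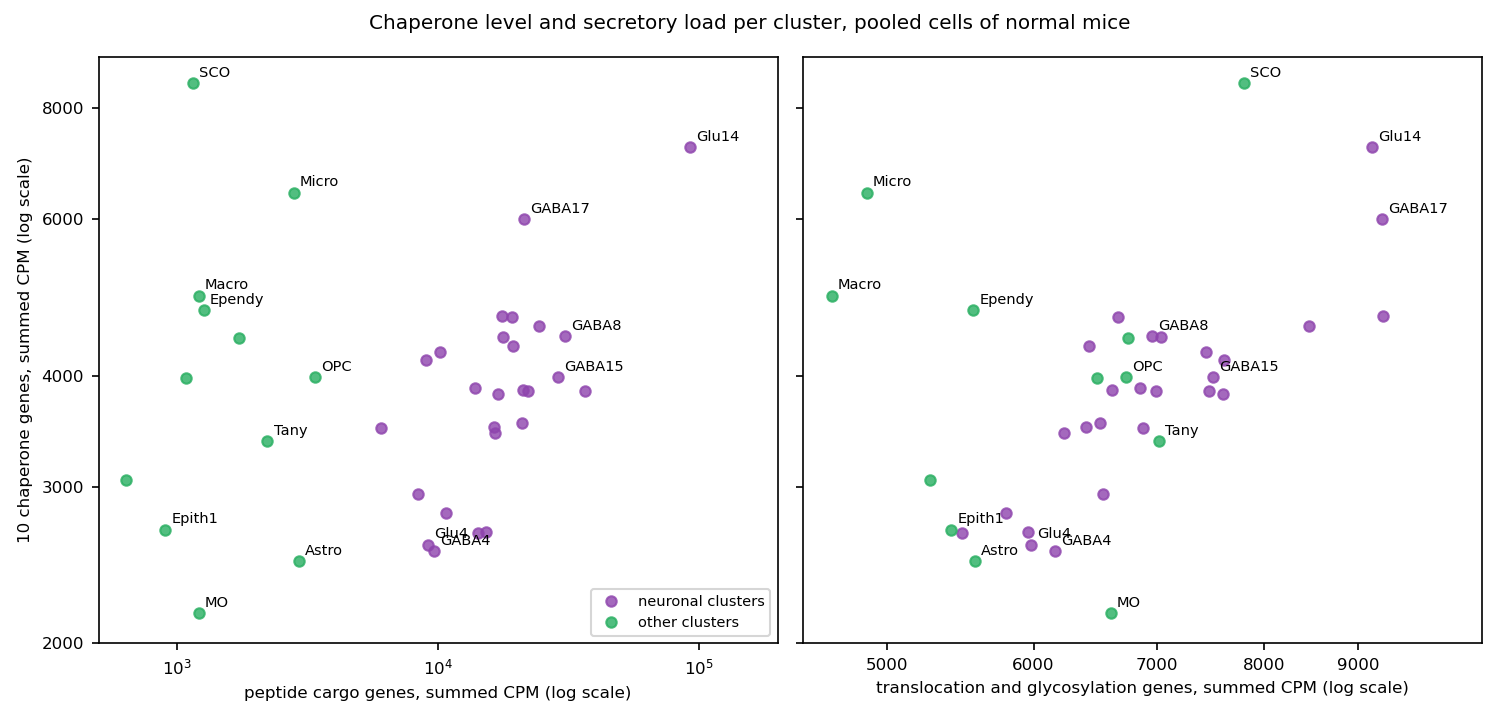
Summed level of the 10 chaperone genes (y axis, CPM, log scale) against the summed peptide cargo (left) and the summed ER translocation and glycosylation genes (right, both x axes in CPM, log scale), with a point per cluster of pooled normal cells. SCO and Micro are high in chaperones with little peptide cargo, while Glu14 is high in both.

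In the pooled normal cells the highest sums of the members showed both patterns side by side. Glu14 had 7242 CPM of summed members beside 92321 CPM of peptide cargo. SCO had 8536 CPM of summed members beside 1150 CPM of peptide cargo, lower than in any neuronal cluster pooled.

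The feeding comparison asked what 24 h without food did to each gene in each cell class, with the mouse as the replicate, in 10 classes that had at least 20 cells in at least 2 mice of each group. No member and no other gene passed the threshold of adjusted p 0.05 in any class by edgeR's quasi-likelihood test with Benjamini-Hochberg adjustment over all genes tested in the class. DESeq2 called 0 members in all classes and 1 gene, in MO. Pairs given one by one below are those with an unadjusted p under 0.05. At an unadjusted p under 0.05, 20 of the 88 member and class pairs that passed the filter on low counts were lower in food-deprived mice and 0 were higher, against 1.7% of all 68603 gene and class pairs that were lower at that p. Of the same 88 pairs 79 had a log2 fold change (food-deprived over normal) below 0, with a median of -0.32, against 50.1% of all pairs and a median of -0.0007. The classes share mice, so these pairs are not independent. The members were also chosen with earlier results of these data known. Their shares against all genes, here and below, are therefore descriptions and not tests. Counts were summed over the cells of a class. Whether a changed share of a sub-type or a changed level within cells lay behind a difference was not tested.

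The log2 fold change was below 0 in 10 of 10 classes for Hspa5 (median -0.60), Hsp90b1 (-0.57), Dnajb11 (-0.33), Pdia4 (-0.31) and Pdia6 (-0.28). It was below 0 in 8 of 9 classes for Creld2 (median -0.33), 4 of 5 for Sdf2l1 (-0.59), 8 of 10 for Xbp1 (-0.08), 7 of 10 for Manf (-0.12) and 2 of 4 for Hyou1 (0.03). Hspa5 and Hsp90b1 were also lower in the food-deprived mouse of batch 1 and of batch 2 in 10 of 10 classes, where 25.9% of gene and class pairs were lower in both batches. Food-deprived replicate 3 differed from the other two. Its Hspa5 was above both other food-deprived mice in 8 of 8 classes where it could be compared and within the normal range in 6 of them, and the same counts held for Hsp90b1. That mouse was alone in its batch, so mouse and batch cannot be told apart.

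**Figure D3:**
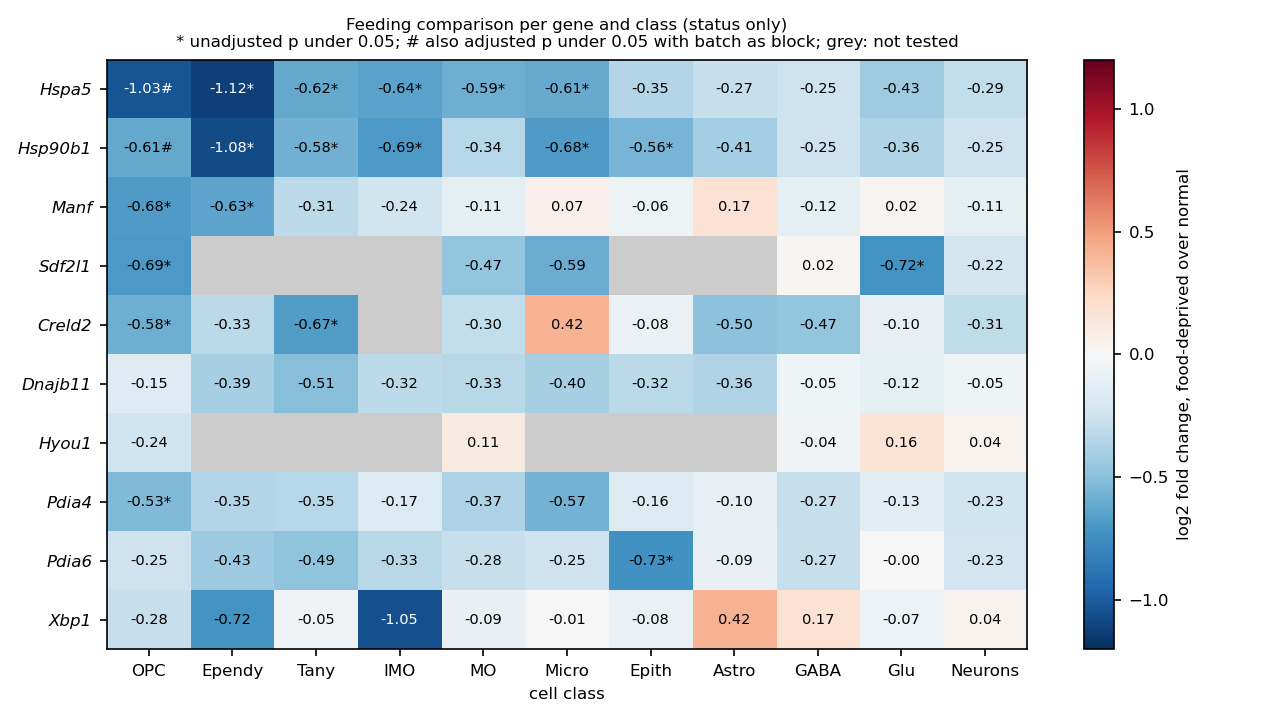
Log2 fold change of each member (rows) per cell class (columns), food-deprived over normal, from the fit with feeding state only, with blue for lower and grey for not tested. Stars mark an unadjusted p under 0.05 and # marks an adjusted p under 0.05 with batch as a block, which is reached by Hspa5 and Hsp90b1 in OPC.

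The oligodendrocyte precursors (OPC) held the most members at an unadjusted p under 0.05. All 10 members were tested there, 6 had an unadjusted p under 0.05 and were lower, against 1.63% of 9265 genes, and 3 did not overlap between the groups, against 1.9% of genes. Hspa5 had 462, 451 and 668 CPM in replicates 1, 2 and 3 of the food-deprived mice, against 897, 1240.4, 923 and 1112 CPM in normal replicates 2 to 5. Every food-deprived mouse was below every normal mouse. The log2 fold change was -1.03 ± 0.20 (SE, n = 3 and 4), with adjusted p = 0.248 by edgeR. With batch as a block, a fit in which only batches 1 and 2 inform the feeding term, it was -1.23 ± 0.16 with adjusted p = 4.05e-10, the smallest among all genes, of which 0.194% passed. The genes that passed in this fit also included the peptide genes Avp and Oxt, the globin gene Beta-s, and Gapdh, whose level differed between libraries. The ribosomal protein genes Rps23 and Rps27a passed as well, both higher in food-deprived mice. The part of stray RNA or of library kind in this fit was not tested. In batches 1 and 2 alone 0.175% of genes passed in OPC, and in their libraries under 50 CPM of Gapdh 0.164% did, with Hspa5 and Hsp90b1 among them each time. Without the filter on low counts Hspa5 passed with all mice, as did 0.0193% of genes. Hsp90b1 stood at 944, 1096 and 1443 CPM in the food-deprived mice, against 1440.1, 1907, 1787 and 1841 CPM in the normal mice. Food-deprived replicate 3 reached the lowest normal mouse, so the groups met. The log2 fold change was -0.61 ± 0.18 with adjusted p = 1 by edgeR, and -0.86 ± 0.16 with adjusted p = 8.25e-05 with batch as a block. Other than for Hspa5 without the filter, the calls for this pair of genes in OPC rest on edgeR fits with batch as a block, which leave 1 residual degree of freedom. DESeq2 with the same block gave Hspa5 -1.23 ± 0.41 and Hsp90b1 -0.86 ± 0.38, both at adjusted p = 1, and DESeq2 without it gave Hspa5 -1.03 ± 0.23 at adjusted p = 0.0814.

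No other member passed in OPC in any of these fits. Manf, the secreted factor, stood at 124, 129 and 99 CPM in the food-deprived mice, against 189, 235, 165 and 179.6 CPM in the normal mice. The groups did not overlap, and the log2 fold change was -0.68 ± 0.23 (adjusted p = 1). Pdia4, the isomerase, stood at 100, 70.2 and 99 CPM in the food-deprived mice, against 165, 128, 122 and 112 CPM in the normal mice. These groups did not overlap either, with a log2 fold change of -0.53 ± 0.22 (adjusted p = 1). Sdf2l1 stood at 39.8, 41.5 and 49.5 CPM in the food-deprived mice, against 47.2, 61.7, 77.9 and 56.1 CPM in the normal mice, overlapping at the shallow normal replicate 2 (log2 fold change -0.69 ± 0.26, adjusted p = 1). Creld2 stood at 48.9, 57.4 and 74.2 CPM in the food-deprived mice, against 142, 100.2, 66.8 and 67.4 CPM in the normal mice (log2 fold change -0.58 ± 0.26, adjusted p = 1). Its groups overlapped, with only normal replicates 2 and 3 above all food-deprived mice. The remaining 4 members had log2 fold changes between -0.28 and -0.15. The share of ribosomal protein UMIs in OPC was 2.0, 2.0 and 3.4% in the food-deprived mice, against 3.2, 1.7, 1.8 and 4.0% in the normal mice. These ranges overlapped over all mice, but in batch 1 and in batch 2 the food-deprived mouse had the higher share. Its part in these results was not tested.

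**Figure D4:**
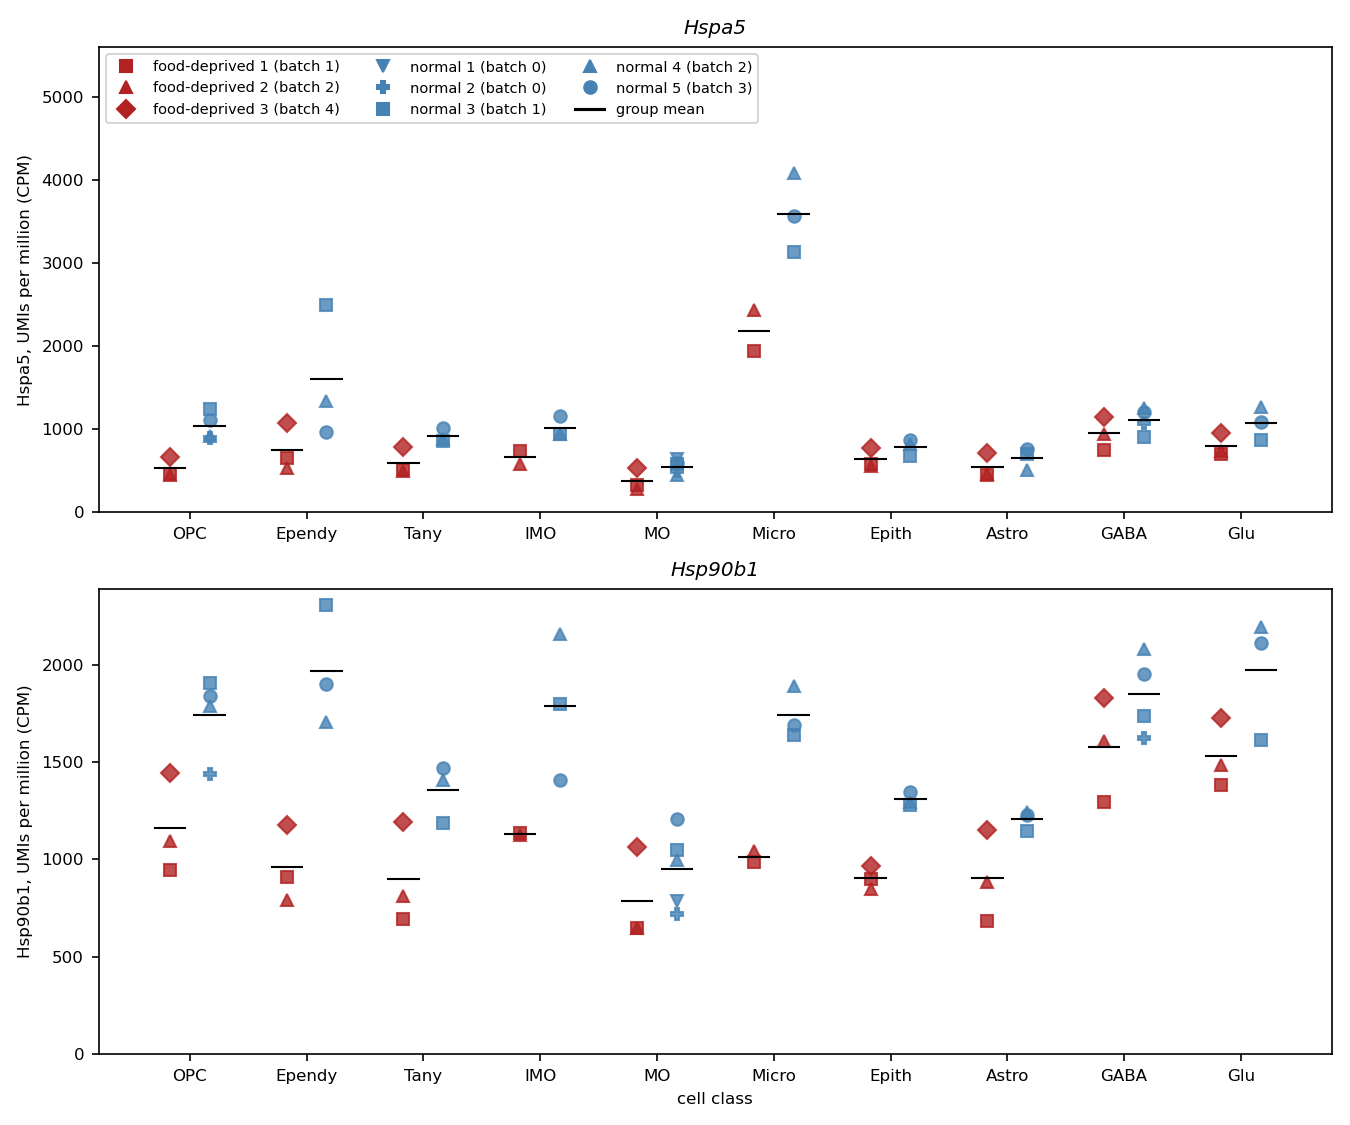
Hspa5 (top) and Hsp90b1 (bottom) in CPM (y axis, from 0) per mouse and cell class, with food-deprived mice left of normal mice, symbols for the batch and black lines for group means. In OPC every food-deprived mouse lies below every normal mouse for Hspa5, and food-deprived replicate 3 lies above the other food-deprived mice in each class where it is drawn.

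The ependymal class had fewer cells than OPC and the largest fold change of Hspa5. Of 8 members tested, 3 had an unadjusted p under 0.05 and were lower, against 2.14% of 5336 genes, and 4 did not overlap, against 4.46% of genes. Hsp90b1 stood at 910.3, 791 and 1177 CPM in the food-deprived mice, against 2307, 1704 and 1899.9 CPM in normal replicates 3, 4 and 5. The groups were well apart, with a log2 fold change of -1.08 ± 0.22 (adjusted p = 0.978 by edgeR). Hspa5 stood at 659, 530.4 and 1072 CPM in the food-deprived mice, against 2490.2, 1342 and 966 CPM in the normal mice. The groups overlapped, and normal replicate 3 was far above the rest. Its log2 fold change was -1.12 ± 0.35 (adjusted p = 0.978), and it ran from -1.47 to -0.63 when each mouse was left out in turn, -0.63 being the value without normal replicate 3 and -1.47 that without food-deprived replicate 3. Without the filter on low counts, which left 15042 genes in the test, Hspa5 and Hsp90b1 passed the adjusted threshold in Ependy, as did 0.14% of genes. Manf stood at 143, 143 and 125 CPM in the food-deprived mice, against 218, 228 and 179 CPM in the normal mice, without overlap (log2 fold change -0.63 ± 0.23, adjusted p = 0.978). The other 5 members tested lay between -0.72 and -0.33.

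In tanycytes, the other cells of the ventricle wall, the members tested were also lower in food-deprived mice. Of 8 members tested, 3 had an unadjusted p under 0.05 and were lower (1.58% of 5938 genes) and 2 did not overlap (4.75% of genes). Hspa5 stood at 505, 498 and 783 CPM in the food-deprived mice, against 860.5, 882 and 1011 CPM in the normal mice. The groups did not overlap, and food-deprived replicate 3 was nearest to the normal mice (log2 fold change -0.62 ± 0.22, adjusted p = 0.999). Creld2, which had one of its highest resting levels here, stood at 84.2, 84.7 and 92.5 CPM in the food-deprived mice, against 165, 149.7 and 107 CPM in the normal mice. The food-deprived mice lay close together and below all normal mice (log2 fold change -0.67 ± 0.25, adjusted p = 0.999). Hsp90b1 stood at 692, 814 and 1194 CPM in the food-deprived mice, against 1188, 1406 and 1468 CPM in the normal mice, and the groups overlapped narrowly (log2 fold change -0.58 ± 0.23, adjusted p = 0.999). The summed astrocyte markers in the tanycyte class were 4053, 4977 and 4028 CPM in the food-deprived mice, against 3398, 3901 and 2546 CPM in the normal mice. The summed IMO markers there were 158, 153 and 150.04 CPM in the food-deprived mice, against 133, 116 and 122 CPM in the normal mice. Their part in these results was not tested.

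The oligodendrocyte lineage beyond OPC was tested in IMO and MO. In IMO, where only food-deprived replicates 1 and 2 had enough cells, 2 of 7 members tested had an unadjusted p under 0.05 and were lower (2.54% of 3230 genes) and 3 did not overlap (9.72% of genes). Hspa5 stood there at 732 and 586 CPM in the food-deprived mice, against 938, 947 and 1153 CPM in the normal mice. Hsp90b1 stood at 1135 and 1127 CPM in the food-deprived mice, against 1796, 2159 and 1406 CPM in the normal mice. Neither gene overlapped between the groups, with log2 fold changes of -0.64 ± 0.25 and -0.69 ± 0.25 (SE), both at adjusted p = 0.952. Xbp1, the transcription factor, had the lowest fold change of the members in IMO, at 43.9 and 90.2 CPM in the food-deprived mice, against 183, 165 and 47.4 CPM in the normal mice. Its groups overlapped at normal replicate 5 (log2 fold change -1.05 ± 0.51, adjusted p = 0.952). The summed neuron markers in IMO were 132 and 167 CPM in the food-deprived mice, against 79.5, 22.0 and 79.0 CPM in the normal mice, and the summed endothelial (Epith) markers there were 65.9 and 206 CPM in the food-deprived mice, against 31.8, 22.0 and 15.8 CPM in the normal mice. The summed OPC markers in IMO were 87.8 and 109.5 CPM in the food-deprived mice, against 47.7, 77.1 and 79.0 CPM in the normal mice. The summed Ependy markers were 29.3 and 19.3 CPM in the food-deprived mice, against 7.95, 0 and 0 CPM in the normal mice. The part of these 4 lists in the IMO results was not tested.

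In MO, 1 of 10 members had an unadjusted p under 0.05 and was lower (2.03% of 7977 genes). Hspa5 stood at 328, 284 and 531 CPM in the food-deprived mice, against 641, 492, 579.6, 444 and 591 CPM in normal replicates 1 to 5. Food-deprived replicates 1 and 2 were below every normal mouse and food-deprived replicate 3 was among them. The log2 fold change was -0.59 ± 0.23 (adjusted p = 1 by edgeR), and -0.76 ± 0.14 with adjusted p = 0.00518 in batches 1 and 2 alone, where 0.737% of genes passed. With all mice and batch as a block it was -0.75 ± 0.17 and did not pass (adjusted p = 0.118). Hsp90b1 stood at 647, 649.5 and 1062 CPM in the food-deprived mice, against 788, 719, 1046, 995 and 1210.1 CPM in the normal mice. The groups overlapped only through food-deprived replicate 3. In batches 1 and 2 alone the log2 fold change was -0.68 ± 0.13 with adjusted p = 0.0101, against -0.34 ± 0.23 with all mice. With all mice Sdf2l1 had -0.47 ± 0.24 and Pdia4 had -0.37 ± 0.24, so that Hsp90b1 was not next to Hspa5 in the order of fold changes there (adjusted p = 1 for each). Both genes also passed in the libraries under 50 CPM of Gapdh, as did 0.399% of genes. These passes in MO rest on edgeR fits of batches 1 and 2 with batch as a block, which leave 1 residual degree of freedom. DESeq2 with all mice and the same block gave Hspa5 -0.75 ± 0.23 (adjusted p = 0.801) and Hsp90b1 -0.67 ± 0.19 (adjusted p = 0.490).

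Micro, the cluster with the most Hspa5 at rest, had food-deprived replicates 1 and 2 only. Of 9 members tested, 2 had an unadjusted p under 0.05 and were lower (0.899% of 5118 genes), and 4 were lower without overlap (9.53% of genes). Hspa5 stood at 1939 and 2432 CPM in the food-deprived mice, against 3129, 4088 and 3566 CPM in the normal mice. Even so, the food-deprived mice had more Hspa5 in Micro than in any other class tested. The log2 fold change was -0.61 ± 0.27 (adjusted p = 1). Hsp90b1 stood at 985 and 1043 CPM in the food-deprived mice, against 1638, 1891 and 1689 CPM in the normal mice, again without overlap (log2 fold change -0.68 ± 0.27, adjusted p = 1). Creld2 lay the other way, with 46.8 and 49.96 CPM in the food-deprived mice, against 40.4, 38.2 and 26.8 CPM in the normal mice. Its log2 fold change, 0.42 ± 0.46, was smaller than its SE (adjusted p = 1). The median UMIs per cell in Micro were 1594.5 and 1602 in the food-deprived mice, against 1554, 1568 and 1068 in the normal mice, and their part was not tested.

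Epith held markers of several vascular cell types. In normal mice it averaged 8333 CPM of summed endothelial markers, Cldn5 and Flt1 among them, and 7138 CPM of summed mural and fibroblast markers. Blood markers also peaked in this class, at 5815 CPM. The part of this mix in the results was not tested. In Epith 2 of 8 members tested had an unadjusted p under 0.05 and were lower (1.72% of 7449 genes) and 2 did not overlap (4.6% of genes). Hsp90b1 stood at 899.8, 849.8 and 966 CPM in the food-deprived mice, against 1282, 1296 and 1347 CPM in the normal mice. Both groups were tight and apart, food-deprived replicate 3 included (log2 fold change -0.56 ± 0.19, adjusted p = 1). Pdia6 stood at 123, 81.6 and 179.8 CPM in the food-deprived mice, against 202, 160.2 and 209 CPM in the normal mice, with overlap (log2 fold change -0.73 ± 0.27, adjusted p = 1). The summed tanycyte markers in Epith were 360.2, 324 and 258 CPM in the food-deprived mice, against 444, 377 and 378 CPM in the normal mice, and their part was not tested. Astrocytes had 0 of 8 members tested at an unadjusted p under 0.05, against 1.85% of genes, with log2 fold changes from -0.50 to 0.42.

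In neurons the median shifts of the members were among the smallest. All GABA, Glu and Hista neurons together gave 0 of 10 members at an unadjusted p under 0.05, against 1.2% of genes, and a median log2 fold change of -0.22. In GABA neurons the count was also 0 of 10 (1.1% of genes), and in Glu neurons it was 1 of 10 (1.93% of 8945 genes). That member was Sdf2l1, the BiP cofactor, at 24.6, 20.6 and 28.8 CPM in the food-deprived mice, against 43.9, 42.3 and 33.2 CPM in the normal mice. The groups did not overlap, as in 4.94% of genes (log2 fold change -0.72 ± 0.26, adjusted p = 1). The summed mural and fibroblast markers in Glu were 13.6, 12.9 and 14.4 CPM in the food-deprived mice, against 56.0, 25.4 and 95.8 CPM in the normal mice, and their part was not tested. In all cells of a mouse together, Sdf2l1 stood at 32.1, 29.6 and 27.9 CPM in the food-deprived mice, against 44.7, 43.5, 40.5, 47.6 and 28.0 CPM in the normal mice. Normal replicate 5 lay among the food-deprived mice (log2 fold change -0.43 ± 0.19, adjusted p = 1), and this was the only member at an unadjusted p under 0.05 there, against 0.53% of genes.

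Batches 1 and 2, each with a single mouse of either feeding state, were set side by side cluster by cluster in the 13 clusters with at least 10 cells in all 4 mice. Hspa5 and Hsp90b1 were lower in the food-deprived mouse of both batches in 13 of 13 clusters. Sdf2l1 was so in 11, Dnajb11 and Pdia6 in 10 each, Manf in 9, Pdia4 in 8, Xbp1 in 7, Creld2 in 6 and Hyou1 in 2. Over all members this made 89 of 130 pairs lower and 6 higher in both batches, where 30.3% of all gene and cluster pairs of at least 50 CPM were lower in both. The member pairs carried no such minimum and many were under 50 CPM, so these shares are not at the same threshold. Macro, a cluster too small for the test by class, held 1283 CPM of Hspa5 in food-deprived replicate 1, against 2687 CPM in normal replicate 3, and 1162 CPM in food-deprived replicate 2, against 2008 CPM in normal replicate 4. GABA8, the highest of the 16 clusters for Manf and Xbp1 at rest, held 567 CPM of Hspa5 in food-deprived replicate 1, against 1160 CPM in normal replicate 3, and 1020 CPM in food-deprived replicate 2, against 1177 CPM in normal replicate 4. The food-deprived mouse was lower in both batches in each of these clusters, by more in batch 1. These counts over clusters were not tested.

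**Figure D5:**
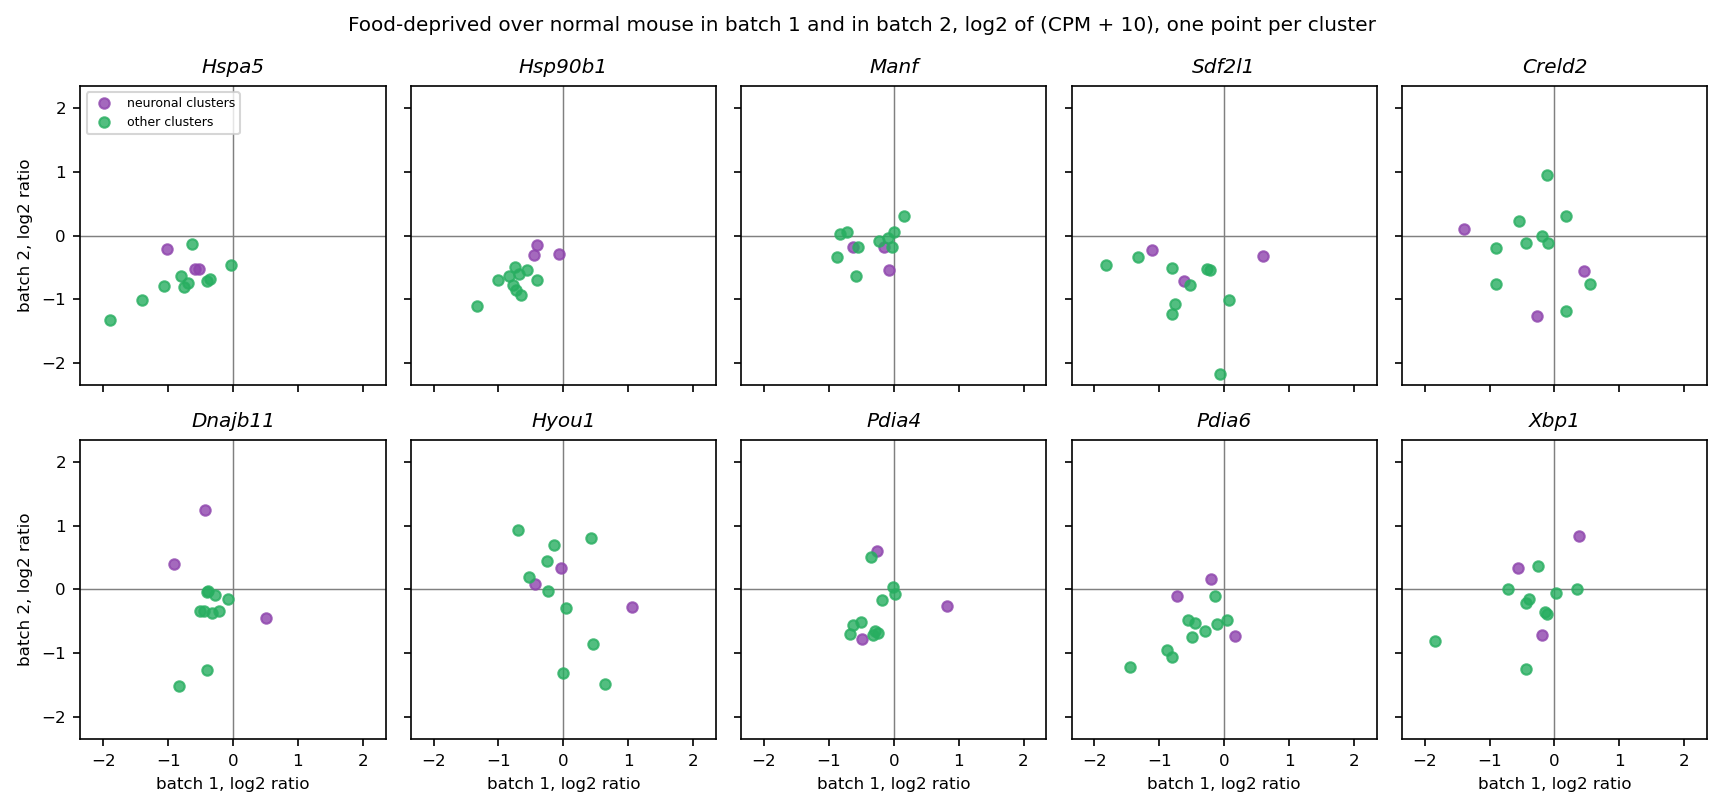
Log2 ratio of (CPM + 10) of the food-deprived over the normal mouse in batch 1 (x axis) and in batch 2 (y axis), with a point per cluster and a panel per member. For Hspa5 and Hsp90b1 all 13 points lie in the lower left field, where both batches are lower.

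Whether the glial classes differed from neurons was tested directly, with the mouse as a block and a term for class by feeding state. No member passed in OPC, Ependy or Tany, where 0.0092, 0 and 0.0277% of genes did. At an unadjusted p under 0.05 were 2 of 10 members in OPC, 4 of 10 in Ependy and 2 of 10 in Tany, against 3.68%, 5.13% and 4.35% of all genes in either direction. The log2 difference of the feeding effect (class minus neurons) was -0.68 ± 0.19 for Hspa5 in OPC (n = 7 mice, adjusted p = 0.833) and -0.81 ± 0.24 for Hsp90b1 in Ependy (n = 6 mice, adjusted p = 0.837). All 10 members lay below 0 in OPC (median -0.30) and in Ependy (median -0.62), and 9 of 10 in Tany (median -0.34). In batches 1 and 2 alone Hspa5 in Ependy passed with -1.29 ± 0.31 (adjusted p = 0.0298, n = 4 mice), where 0.117% of genes did.

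The other genes of the ER were taken as lists. In OPC the 32 genes of ER translocation and glycosylation split into 16 lower and 16 higher (median log2 fold change -0.01), and 7 of 13 genes of ER export and retrieval were lower (median -0.02). Of 19 other ER folding genes tested in OPC, 12 were lower and 0 reached an unadjusted p of 0.05 (median -0.13). The summed level of the other ER folding genes overlapped between the groups in OPC, but not in Ependy, IMO, Micro or Glu, where it was lower in every food-deprived mouse. In Micro it was 3555 and 3163 CPM in the food-deprived mice, against 4649, 4580 and 4559 CPM in the normal mice. In Ependy it was 3546, 3325 and 4081 CPM in the food-deprived mice, against 4464, 4314 and 4160.4 CPM in the normal mice. These sums were not tested, and neither was their difference from the members. Of the genes of ER-associated degradation in OPC, 4 of 11 were lower, with a median above 0 (0.17). Edem3 and Edem2, which send misfolded glycoproteins to degradation, were the 2 of that list with an unadjusted p under 0.05, at log2 fold changes of 1.16 ± 0.47 and 0.60 ± 0.27 (SE, adjusted p = 1 for each). Of 9 sensors and effectors of the unfolded protein and integrated stress responses tested there, 6 were lower and 0 had an unadjusted p under 0.05 (median -0.10).

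Single ER folding genes stood with the members in other classes. In Ependy the lectin chaperone Calr averaged 517 ± 68.6 CPM in food-deprived mice and 898 ± 155 CPM in normal mice (SD, n = 3 each), a log2 fold change of -0.84 ± 0.21 (adjusted p = 0.978), and Pdia3, which acts with it, had -0.54 ± 0.23 (adjusted p = 0.978). In Epith Calr had a log2 fold change of -0.61 ± 0.24 (adjusted p = 1). In MO the prolyl isomerase Fkbp2 averaged 170.3 ± 27.8 CPM in food-deprived mice (SD, n = 3) and 269 ± 28 CPM in normal mice (SD, n = 5), a log2 fold change of -0.65 ± 0.20 (adjusted p = 0.79). In Micro Hspa13, an Hsp70 relative, and Txndc5, a disulfide isomerase, had log2 fold changes of -0.92 ± 0.38 and -1.19 ± 0.50 (adjusted p = 1 for each). All of these had an unadjusted p under 0.05. Ppp1r15a, which ends the integrated stress response, was the only listed stress gene in Micro at an unadjusted p under 0.05, and it was higher, with 811 ± 186 CPM in food-deprived mice (SD, n = 2) and 501 ± 54.1 CPM in normal mice (SD, n = 3). Of the 8 listed stress genes tested in Micro, 0 were lower (median log2 fold change 0.46), where 48.3% of all genes were lower.

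Most listed chaperones outside the ER were also lower in food-deprived mice. In Ependy 18 of 19 cytosolic heat shock genes tested were lower (median log2 fold change -0.93), where 50.2% of all genes were lower. At an unadjusted p under 0.05, 11 were lower, against 2.14% of genes. They were led by Dnajb1, the Hsp40 partner of Hsp70, at 110 ± 39.7 CPM in food-deprived mice and 599 ± 537 CPM in normal mice (SD, n = 3 each). In OPC 17 of 17 were lower (median -0.35) and 3 had an unadjusted p under 0.05, against 1.63% of genes. Hsph1, a nucleotide exchange factor of Hsp70, was the one that passed with batch as a block (adjusted p = 0.00762 by edgeR). In Epith 17 of 20 were lower (median -0.40) and 6 had an unadjusted p under 0.05, against 1.72% of genes. The list moved less in Astro, with 14 of 18 lower (median -0.09) and 1 at an unadjusted p under 0.05 (1.85% of genes). In Micro 14 of 19 were lower (median -0.20) and 0 were at that p (0.899% of genes). The immediate early genes, which dissociation of tissue can induce, differed in direction between classes. In OPC 2 of 10 were lower (median 0.23) and in Ependy 3 of 10 (median 0.04). In neurons 11 of 11 were lower (median -0.28) and in Astro 9 of 9 (median -0.52). Whether handling of the tissue differed between the mice was not tested.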

How the data were processed

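RNA of single cells of the hypothalamus was counted by Drop-seq in 3 food-deprived and 5 normal mice, in 17 libraries. The deposited tables hold raw UMI counts per gene and cell, whole numbers with no normalization, and the cluster of each cell is the authors' deposited annotation. The genome build was mm9, per the submitters' processing notes. The sources used here do not give the aligner or any removal of doublets, and no doublet filter was added. No mitochondrially encoded genes are in the rows used.

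Counts of the cells of a mouse and class were summed, and classes were made from the stem of the cluster name. Printed levels are CPM on plain UMI totals (floor for a count of 0, 3 UMIs). Feeding state was tested in R 4.3.3 with edgeR 4.0.16 by its two-sided quasi-likelihood test (TMM factors, filterByExpr, Benjamini-Hochberg over all genes tested in a class, threshold 0.05) in mice with at least 20 cells of the class, and with DESeq2 1.42.0 as an alternative. Fold changes come from the fitted model. Log2 levels for correlations used CPM + 10. Tables were handled in Python 3.11.15 with pandas 2.3.3, and the test was run on simulated data first. Whether replicates came from separate litters is not stated. The members and gene lists were chosen with earlier results of these data known. All members are described, with values in every mouse where the unadjusted p was under 0.05, or the adjusted p under 0.05 with batch as a block. From the other lists, counts and up to 3 genes per class with the smallest p were taken. Alternatives covered batch, scaling, filters, the minimum of cells, libraries by Gapdh and each mouse left out. Promoter sequences are those of RefSeq on GRCm38.p6, and the counts carry no coordinates.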

Additional observations from a re-analysis of the deposited data

Results flagged for a closer look

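Among normal mice, 60 sets of 4 or more mice were checked for a mouse far from the others, and 3 stood out. Chance alone flags about 5% of such sets. Pdia6 in GABA neurons stood at 583 CPM in normal replicate 2, against 279 to 318 CPM in the other normal mice. Xbp1 in MO stood at 160.3 CPM in normal replicate 1, against 82.3 to 101 CPM in the others. Both mice are the shallow ones of batch 0. Xbp1 in all cells stood at 142 CPM in normal replicate 5, below the 161 to 163 CPM of the others.

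The feeding effect on Hspa5 differed between ependymal cells and neurons in batches 1 and 2 alone, with a log2 difference of -1.29 ± 0.31 (edgeR, adjusted p = 0.0298, n = 4 mice). With all 6 mice it was -0.79 ± 0.31 (adjusted p = 0.91). Normal replicate 3, whose Hspa5 in Ependy was far above that of the other mice, is 1 of the 4.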

How the results depend on the processing

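No paired analysis was possible with the replicate numbers as pairs because they were given in accession order and do not tie a food-deprived mouse to a normal one. Batch served as the block instead. Of 323 recomputed fold changes of the named member and class pairs, 312 kept their direction and side of the threshold, 11 newly passed the adjusted threshold and 0 reversed. Those 11 were Hspa5 or Hsp90b1 in OPC, MO or Ependy. In OPC 0 members passed with feeding state only, against 2 with batch as a block, 2 in batches 1 and 2 alone, 2 in libraries under 50 CPM of Gapdh, and 1 with no low-count filter. DESeq2 called 0 there, with the block and without it. In MO 2 passed in batches 1 and 2 alone and 2 in libraries under 50 CPM of Gapdh, and in Ependy 2 passed with no low-count filter. For Ependy minus neurons 1 passed in batches 1 and 2 alone. The causes were not tested. Leaving out each mouse left 0 members passing in each class, and OPC Hspa5 ran from -1.21 to -0.91.

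Of the 10 clusters that were highest for a member, 6 stayed highest with all 8 mice, 5 with a minimum of 5 cells and 6 in libraries under 50 CPM of Gapdh. With more clusters admitted, Glu14 became highest for Hsp90b1, Manf and Hyou1. Without normal replicate 2 or 5, 7 stayed.

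The correlation of summed members with peptide cargo over all clusters was 0.37 with all 8 mice, 0.33 with a minimum of 5 cells, and 0.62, -0.22, 0.19 and 0.40 within normal replicates 2, 3, 4 and 5. Among neuronal clusters it was 0.73 with all 8 mice, 0.79 with a minimum of 5 cells, 0.66 in pooled cells, and 0.71 and 0.64 within normal replicates 3 and 5. With translocation genes the last 3 settings gave 0.84, 0.84 and 0.83. The pooled and within-mouse settings were chosen after seeing the data. Low members such as Hyou1, tested in 4 of 10 classes, are limited by depth.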
